A study of Mus musculus with 4 samples.

Results

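Expression in mouse cortical neural precursor cells that received a Foxa2 retrovirus was set against expression in cells that received the empty virus, with 1 array on each side. The genes described are those with a probe that carries a gene symbol and was detected on the Foxa2 array, the Control array or both, where detected means a detection p-value under 0.01. That rule held for 10948 of the 25697 probes and for 7923 of the 8980 named genes. Of these genes, 7358 were detected on both arrays, 406 on the Foxa2 array alone and 159 on the Control array alone.

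The precursor cells were taken from ICR mouse cortex at embryonic day 12 and expanded in serum-free medium with the growth factors bFGF and EGF. While dividing they were exposed for 2 hours to retroviral supernatant, and both growth factors were then removed for 2 days before total RNA was taken with Trizol. The Control group received the empty pCL vector and the Foxa2 group pCL carrying a Foxa2 cDNA. Arrays of cells given Nurr1 virus, or Nurr1 and Foxa2 virus together, complete the series, which asks about a joint action of the factors in making dopamine neurons. The share of cells that took up virus, and whether the culture was 1 pool or several, are not stated in the labels.

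Foxa2 belongs to the forkhead family of transcription factors and marks the floor plate, the ventral midline strip of the neural tube that secretes Sonic hedgehog. In the midbrain the floor plate also gives rise to dopamine neurons, and Foxa2 acts in that lineage together with the nuclear receptor Nurr1. Outside the nervous system Foxa2 is best known for its part in the development of liver, pancreas and other endoderm organs, where it binds a forkhead DNA motif.

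Median signals of the Control and Foxa2 arrays were 134 and 145, against 138 with Nurr1 and 149 with both, and 42.7% to 44.6% of probes were detected. No named probe represents Foxa2, so the transduced gene was not analysed here and gives no check of the labels. Nr4a2, the gene of Nurr1, had signals of 167 (Control), 216 (Foxa2), 1669 (Nurr1) and 1620 (both), high on the arrays labelled with Nurr1. The progenitor markers Nes (2360 on the Control array, 3024 on the Foxa2 array), Sox2 (4198 and 5149) and Vim (12016 and 18439) were detected on both arrays, and all 29 neural progenitor and radial glia genes with a named probe were detected on at least 1. No group had a replicate, so every difference below stands without a replicate check and no p-value is given. The only error that could be measured was the spread between probes of 1 gene: the log2 difference varied with a standard deviation of 0.20 over 1975 genes with at least 2 probes detected on both arrays.

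More genes were higher than lower with Foxa2. With 2-fold as the threshold, 279 genes were higher (3.52% of the 7923) and 117 lower (1.48%), 396 or 5% in all, while the median over all genes was -0.03 on the log2 scale. By probe, 343 of 10948 were at least 2-fold higher (3.13%) and 164 lower (1.5%). Folds were taken from background-corrected and quantile-normalized values, whereas signals are quoted as deposited, so a ratio of signals is not the fold. Where 1 array did not detect a gene, the fold is a bound against the lowest detected level of that array and is written "at least". Such bounds make up 62 of the 279 higher and 13 of the 117 lower genes. Large folds lay on the higher side: 61 genes were at least 4-fold higher, 18 at least 8-fold and 2 at least 32-fold, against 3 genes at least 4-fold lower and 0 at least 8-fold. In 4 equal groups of genes by level, from dim to bright, the higher genes numbered 87, 108, 59 and 25 and the lower genes 43, 33, 22 and 19. The threshold has no gap around it. Melk, Gng3, Cadps2, Mcm4 and Scarf2 lay just inside on the higher side (2.00-fold to 2.01-fold), and Man2a1, Slc8a1, Fcgrt, Tspan9 and Dzip1l just outside it. On the lower side Vxn, Ncald, Litaf, Wwtr1 and Prss23 were just inside, and Vgll4, Kctd12, Bcas1, Slc38a3 and Fabp7 just outside.

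**Figure D1:**
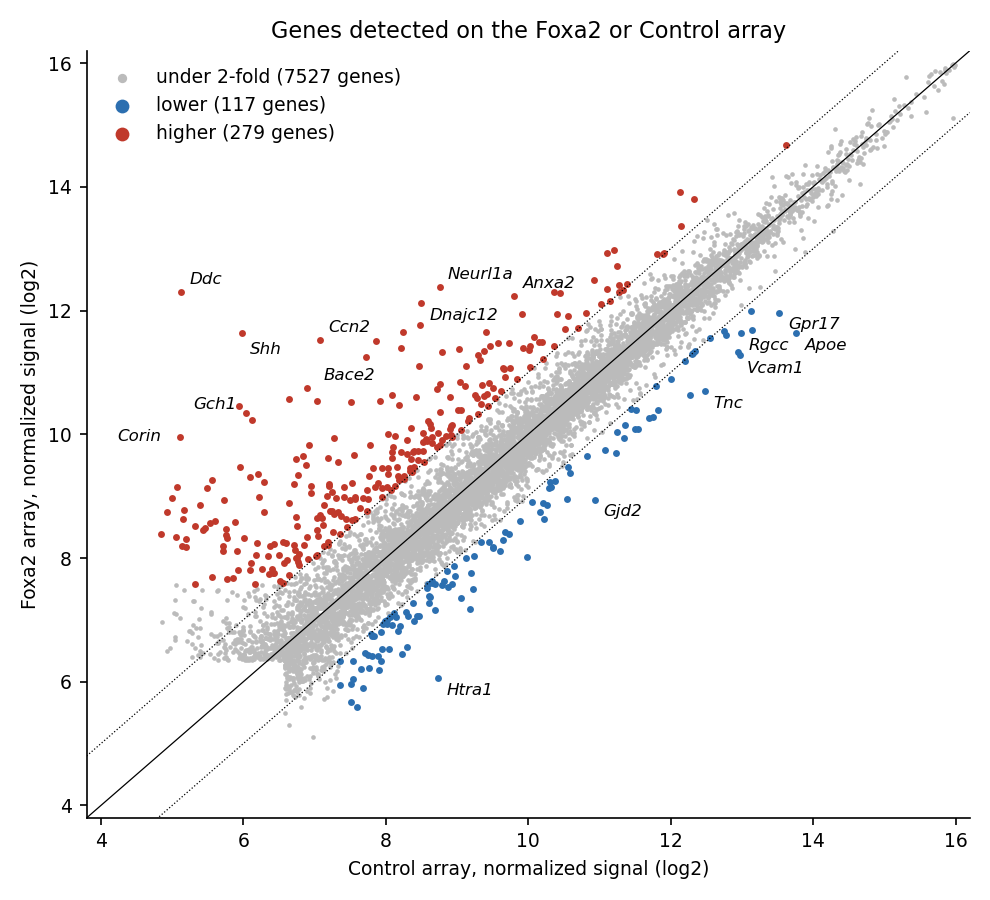
Normalized signal (log2) of each of the 7923 genes on the Control array (x axis) and the Foxa2 array (y axis), 1 point a gene. Red points are the 279 genes at least 2-fold higher and blue points the 117 at least 2-fold lower, dotted lines mark 2-fold, and the points farthest from the diagonal, such as Ddc and Shh, lie on the higher side.

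The largest difference belonged to an enzyme of dopamine synthesis. Ddc encodes aromatic L-amino acid decarboxylase, which turns L-DOPA into dopamine. Its signal was 106 on the Control array, where it was not detected, and 5243 on the Foxa2 array, at least 52.6-fold higher. Gch1 encodes GTP cyclohydrolase, the first enzyme on the path to tetrahydrobiopterin, the cofactor of tyrosine hydroxylase. It went from 145, not detected, on the Control array to 1366 on the Foxa2 array, at least 12.6-fold higher, and its dimmer probe was at least 1.62-fold higher. Dnajc12, encoding a co-chaperone of the aromatic amino acid hydroxylases, had 400 on the Control array and 4681 on the Foxa2 array, a measured 12.3-fold. Each of these 3 genes had a far higher signal on the Foxa2 array than on the Control array.

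The hydroxylase that Gch1 and Dnajc12 serve stayed near the detection limit. Th, encoding tyrosine hydroxylase, was not detected with the empty virus (101) and had 237 with Foxa2, at least 1.45-fold higher. Other genes of the cofactor path lay within 2-fold: Qdpr, which recycles the cofactor, was 1.34-fold higher (1227 and 1851), while Pts, Spr and Pcbd2 were 1.27-fold, 1.47-fold and 1.16-fold lower. The aldehyde dehydrogenase gene Aldh2 was 1.12-fold lower. Of 13 genes of monoamine synthesis and transport with a named probe, 9 were measured, 3 were at least 2-fold higher and 0 lower, with a median of 0.42. Over all genes 3.52% were higher and 1.48% lower. The dopamine transporter gene Slc6a3, the dopamine receptor gene Drd2, Gchfr and Pcbd1 were detected on neither array. The median rests on which genes count as measured: it was -0.18 at a detection p-value under 0.05 and -0.21 with no filter.

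Some genes of the floor plate were much higher and others were not. Shh, encoding the secreted morphogen of the floor plate, had 139 on the Control array, where it was not detected, and 3414 on the Foxa2 array, at least 33.2-fold higher, and its other probe was at least 4.04-fold higher. Corin, a membrane protease of the midbrain floor plate, had 105, not detected, and 1141, at least 10.4-fold higher. Slit2, a guidance protein that repels axons from the midline, had 237 and 1637, 8.05-fold higher. Sulf1, a sulfatase that trims heparan sulfate around Hedgehog and Wnt proteins, was at least 4.07-fold higher (126, not detected, and 507). All 4 were high on the Foxa2 array and at or near background on the Control array. The other members did not share this. Wnt5a was 1.59-fold higher, the floor plate adhesion protein gene Spon1 at least 1.19-fold higher, and the midbrain transcription factor gene En2 2.19-fold lower (293 and 207), a value under 2-fold in 4 of the 9 alternative settings. Lmx1b, a transcription factor of the dopamine lineage, was just detected on the Foxa2 array (179) and gave no difference, while Msx1 and En1 were detected on neither. The list of 8 measured genes thus held 4 higher and 1 lower, with a median of 1.35, where 3.52% of all genes were higher and 1.48% lower.

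Components that answer to Hedgehog differed less than Shh itself. Ptch1, the Hedgehog receptor and itself a target of the pathway, was 2.04-fold higher (265 and 558). Hhip, a membrane protein that binds and buffers Hedgehog, was at least 3.07-fold higher (130, not detected, and 402). Ccnd1, encoding cyclin D1, was 3.36-fold higher (854 and 3096), and its 3 probes lay between 1.65 and 1.75 on the log2 scale. The signal transducer gene Smo was 1.22-fold higher and the ligand release gene Disp1 1.05-fold lower. Boc, a co-receptor, was at least 2.28-fold lower (241, and 173, not detected), and the ventral identity gene Nkx2-2 1.48-fold lower. In all 4 of 10 measured genes were higher and 1 lower, with a median of 0.23, or -0.044 with no detection filter. Over all genes 3.52% were higher and 1.48% lower. The 10 include the peroxiredoxin gene Prdx2 (1.01-fold lower), which is not a Hedgehog component, so the count and median are not of pathway genes alone.

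Promoters of Ddc, Slit2, Apoe and Gch1 are printed as examples, chosen after values and matches were seen, of genes of dopamine synthesis and the floor plate and of the gene with the largest measured lower value (Apoe, described further on). Other genes with large differences have promoters in the table too. The sequences come from RefSeq (mouse assembly GRCm38.p6). Each runs from 250 bases before to 50 bases after an annotated start, read 5′ to 3′ on the gene's strand. Capitals mark a forkhead core, TGTTTAC or TATTTAC, searched on both strands, so that GTAAACA and GTAAATA are the same cores read on the other strand. Ddc lies on the minus strand at chr11:11890359-11890658 (1 of 2 starts in the table), Slit2 on the plus strand at chr5:47982905-47983204, Apoe on the minus strand at chr7:19698349-19698648 (1 of 3 starts) and Gch1 on the minus strand at chr14:47189364-47189663. For Ddc and Apoe the start shown was picked because it is the first with a match.
Ddc: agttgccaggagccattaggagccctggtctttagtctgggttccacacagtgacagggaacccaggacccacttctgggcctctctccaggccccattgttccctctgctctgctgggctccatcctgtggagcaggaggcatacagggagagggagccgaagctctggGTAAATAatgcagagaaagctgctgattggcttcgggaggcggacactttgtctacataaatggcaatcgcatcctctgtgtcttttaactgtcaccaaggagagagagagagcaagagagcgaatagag
Slit2: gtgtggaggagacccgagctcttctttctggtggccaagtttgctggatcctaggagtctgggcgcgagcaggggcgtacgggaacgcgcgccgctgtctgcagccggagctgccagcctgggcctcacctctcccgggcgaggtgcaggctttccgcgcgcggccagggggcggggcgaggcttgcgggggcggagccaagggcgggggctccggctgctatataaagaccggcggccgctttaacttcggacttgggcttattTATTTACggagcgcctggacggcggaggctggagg
Apoe: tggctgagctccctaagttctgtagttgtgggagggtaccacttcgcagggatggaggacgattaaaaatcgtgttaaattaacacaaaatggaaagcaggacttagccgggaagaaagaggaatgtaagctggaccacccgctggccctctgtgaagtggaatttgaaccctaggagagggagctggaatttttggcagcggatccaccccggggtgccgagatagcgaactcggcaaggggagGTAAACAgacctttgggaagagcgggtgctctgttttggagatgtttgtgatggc
Gch1: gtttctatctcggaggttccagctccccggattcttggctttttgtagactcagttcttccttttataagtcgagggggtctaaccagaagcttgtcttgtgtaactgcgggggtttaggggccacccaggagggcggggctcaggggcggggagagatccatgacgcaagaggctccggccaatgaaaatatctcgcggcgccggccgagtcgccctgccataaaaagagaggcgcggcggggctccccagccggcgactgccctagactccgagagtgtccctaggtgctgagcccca
The match in Ddc begins 80 bases before the start (position -80), that in Apoe at -5 and that in Slit2 at 16, inside the transcribed part, and Gch1 has none in this window. A core was present in the promoters of 7.35% of 27025 genes in the table and of 4.86% of the 6488 measured genes that have one. These shares count a gene when any of its listed starts has a match. The share was 4.78% of 209 higher genes, 10% of 80 lower genes (8 genes) and 4.79% of genes that were neither. Among the higher genes with a match were also Dnajc6, Steap2, Dusp10, Emp1 and Timp4, and among the lower ones Brinp3, Rgcc and Ndrg2. A match is a string of letters and not a measured binding site.

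Genes of regulated secretion formed the other strong set. They included genes that pancreatic islets are known for, although the list mixes islet and neuroendocrine genes. Bace2, a membrane protease of islet beta cells, had 186 on the Control array and 1893 on the Foxa2 array, 14.5-fold higher, and a dimmer probe was at least 1.74-fold higher. Ero1b, the oxidase that serves disulfide formation in the endoplasmic reticulum of secretory cells, had 263 and 2670, 11.6-fold higher. Scg2, encoding the granule protein secretogranin II, had 292 and 1657, 6.11-fold higher. Each of these was low but detected with the empty virus, where the lowest detected signal was 166. Rph3a, a Rab3 effector of vesicle release, was 2.82-fold higher, the peptide amidating enzyme gene Pam 2.14-fold, and the granule priming gene Cadps2 2.00-fold, though Cadps2 was under 2-fold in 6 of the 9 alternative settings. In all 6 of 17 measured genes were higher and 0 lower, 14 lay above 0, and the median was 0.68. With 1.48% of all genes lower, the count of 0 says little. Ero1b was the single higher gene among 37 measured genes of protein folding in the endoplasmic reticulum (2.70%, against 3.52% of all genes), whose median was 0.09.

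Few endoderm and liver genes were measured. Of 12 with a named probe, 7 were measured, 0 were higher and 1 was lower, with a median of 0.00. With 3.52% of all genes higher, 0 of 7 is no result about these genes. Ttr, the transthyretin gene that Foxa factors are known to bind in liver, was 2.09-fold lower (274 and 202), but under 2-fold in 5 of the 9 alternative settings. Hnf4a stood at the detection limit on both arrays (171 and 176). Prox1, a homeobox gene of liver and of neural progenitors alike, was 1.73-fold higher (715 and 1381) by 1 probe, while its other probe gave no difference.

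**Figure D2:**
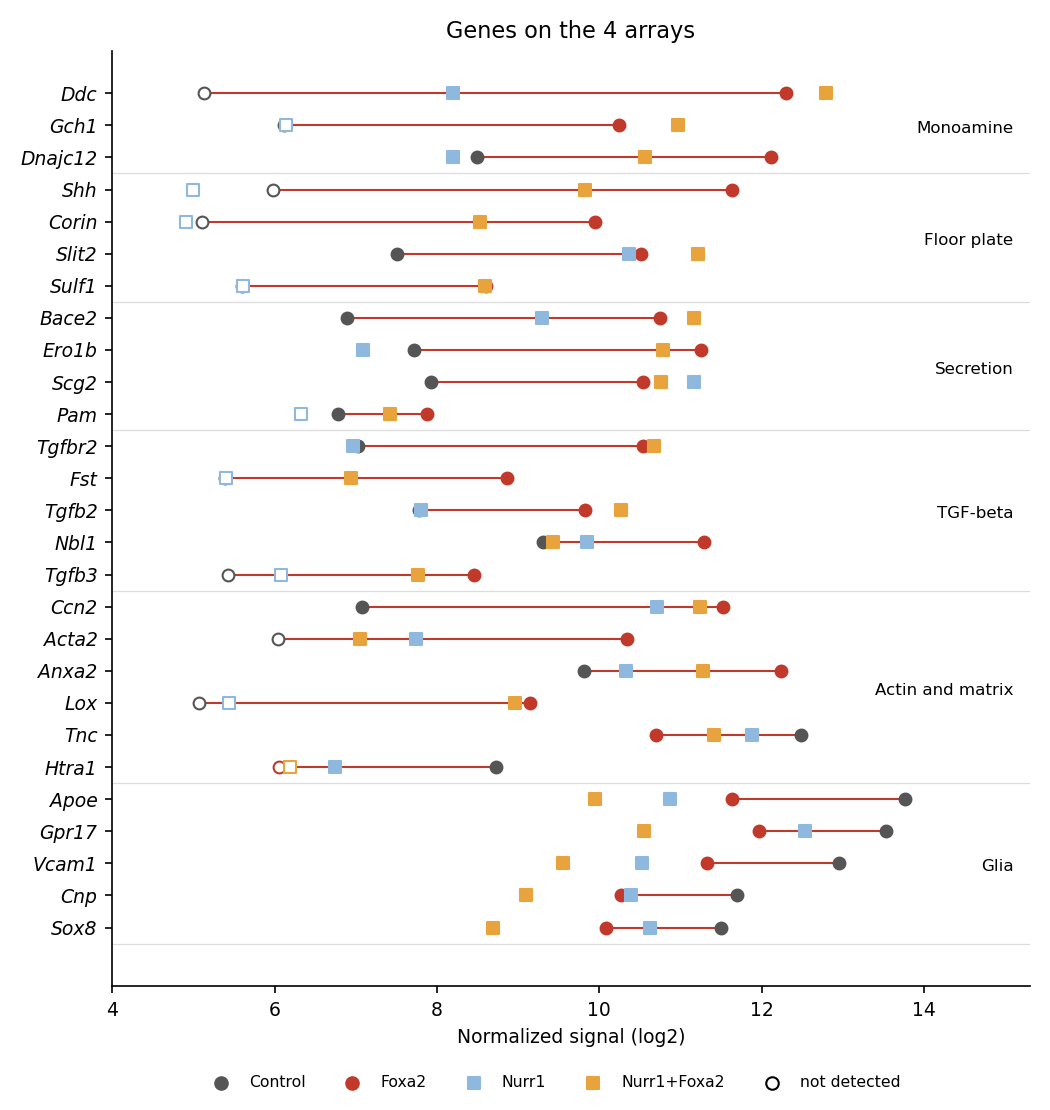
Normalized signal (log2, x axis) of 27 genes on the 4 arrays, with lines joining the Control array (grey circles) to the Foxa2 array (red circles). Squares are the Nurr1 array (blue) and the array with both factors (orange), and open symbols mark a gene not detected on that array. Ddc, Shh and Corin are open on the Control array and filled on the Foxa2 array, while Apoe, Gpr17 and Vcam1 are lower on the Foxa2 array.

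Of the measured genes of the TGF-beta and BMP family, which signals through SMAD proteins, 30% were at least 2-fold higher. Over all genes that share was 3.52%. Tgfbr2, the type II TGF-beta receptor, had 196 on the Control array, where the lowest detected signal was 166, and 1667 on the Foxa2 array, 11.4-fold higher. Its dimmer probe, not detected on the Control array, was only at least 1.04-fold higher. The ligand gene Tgfb2 was 4.13-fold higher (270 and 1058) and Tgfb3 at least 3.68-fold (119, not detected, and 465). Extracellular antagonists were also higher: Fst, encoding follistatin, at least 4.85-fold (117, not detected, and 589), and Nbl1 3.95-fold (651 and 2710). Downstream, the SMAD gene Smad3 was 2.19-fold higher and the BMP target genes Id1 and Id3 2.49-fold and 2.62-fold. With Fstl1 at 2.37-fold, 9 of 30 measured genes were higher and 0 lower, and the median was 0.27. With 1.48% of all genes lower, the count of 0 says little about these genes. The list thus holds ligands and antagonists together.

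Genes of the actin cytoskeleton and matrix held some of the largest differences. Ccn2, a matricellular growth factor and target of the YAP and SMAD pathways, had 199 and 3201, 21.8-fold higher, the largest measured difference. Its Control signal was not far above the lowest detected one (166). Acta2, encoding smooth muscle actin, had 141 on the Control array, not detected, and 1465 on the Foxa2 array, at least 13.5-fold higher, but its dimmer probes were higher by at least 1.85-fold and 2.21-fold. The LIM protein gene Csrp2 was 4.03-fold higher and the actin cross-linker gene Actn1 2.09-fold. In the same list of YAP and SRF target genes Amotl2 was 2.40-fold and the YAP paralogue gene Wwtr1 2.00-fold lower (under 2-fold in 6 of the 9 alternative settings), so that 4 of 27 were higher and 2 lower, 18 lay above 0, and the median was 0.31 against -0.03 for all genes. Shares over all genes were 3.52% higher and 1.48% lower. The annexin genes Anxa5 (341 and 2939) and Anxa2 (900 and 5059), which encode calcium-dependent membrane binding proteins, were 9.12-fold and 5.38-fold higher.

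Matrix genes differed in both directions. The collagen cross-linking enzyme gene Lox was at least 5.94-fold higher (104, not detected, and 700), Spon2 at least 6.30-fold (152, not detected, and 739), and the leucine-rich proteoglycan gene Prelp 3.90-fold (682 and 2827). Tnc, encoding tenascin C of the progenitor matrix, was 3.44-fold lower (5449 and 1843), and all 6 of its probes were lower, from -2.13 to -0.37 on the log2 scale. The elastic fibre genes Mfap4 and Loxl1 were 3.31-fold and 2.80-fold lower and Matn4 2.19-fold. Lox and its relative Loxl1 therefore lay on opposite sides. Of 36 matrix genes 7 were higher and 5 lower, with a median of 0.10, where 3.52% of all genes were higher and 1.48% lower. Among matrix proteases Htra1 was at least 5.22-fold lower (455, and 156, not detected), the largest lower value of all, with both probes lower, and Adamts5 was 2.67-fold lower, while the inhibitor gene Timp4 was 3.05-fold higher. Among genes of heparan sulfate and hyaluronan, the glypican gene Gpc3 was 12.6-fold higher (282 and 3176), or 20.4-fold by its other probe, and the hyaluronan synthase gene Has2 at least 2.67-fold lower.

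Genes of cell division were higher as a group, each by a modest amount. Of 44 measured genes of DNA replication and S phase, 41 lay above 0, 11 were at least 2-fold higher and 0 lower, and the median was 0.66. Over all genes 44.3% lay above 0, 3.52% were higher and 1.48% lower, so the count of 0 lower says little. The replicative helicase genes Mcm5 (1032 and 2997), Mcm3 (231 and 513), Mcm2 (389 and 913) and Mcm6 (485 and 1157) were 2.64-fold, 2.27-fold, 2.21-fold and 2.18-fold higher. Mcm4 lay at 2.01-fold and was under 2-fold in 6 of the 9 alternative settings. Uhrf1, which couples DNA methylation to replication, was 3.17-fold higher (584 and 1940), and the initiation factor gene Mcm10 3.31-fold (229 and 698), though a dimmer probe of Mcm10 gave 0.13 on the log2 scale. The licensing factor gene Cdt1 was 2.30-fold and the salvage kinase gene Tk1 at least 3.05-fold higher.

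Mitotic genes behaved alike. Of 40 measured genes of mitosis and the spindle, 37 lay above 0, 9 were at least 2-fold higher and 0 lower, with a median of 0.73. Top2a, the topoisomerase of dividing cells, was 2.58-fold higher (414 and 1122), the midzone protein gene Prc1 2.45-fold (1151 and 3117) and the kinase gene Cdk1 2.16-fold (366 and 842). Over all genes 44.3% lay above 0, 3.52% were at least 2-fold higher and 1.48% lower, so the count of 0 lower says little. Inhibitors of the cycle were not lower: Cdkn1c, with a high signal on both arrays (12057 and 26362), was 2.08-fold higher, the p53 target gene Fas 2.71-fold, and Cdkn1a 2.03-fold, although Cdkn1a was under 2-fold in 4 of the 9 alternative settings. Of 36 cell cycle inhibitors and p53 targets 4 were higher and 0 lower, where 1.48% of all genes were lower, and the median was 0.13.

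Feedback genes of the MAP kinase pathway, which growth factor receptors switch on, were also above the median of all genes. The phosphatase gene Dusp4 was at least 5.13-fold higher (130, not detected, and 616), Dusp10 at least 3.35-fold (140, not detected, and 432) and Dusp6 2.60-fold (709 and 1995). Dimmer probes gave less, at least 1.66-fold for Dusp4 and at least 1.05-fold and 1.14-fold for Dusp6. With Ccnd1 and Dusp8 (2.03-fold), 5 of 25 measured genes were higher and 0 lower, with a median of 0.41, or 0.15 at a detection p-value under 0.05 and 0.13 with no filter. Over all genes 3.52% were higher and 1.48% lower, so the count of 0 lower says little. In a list of receptor tyrosine kinases, their ligands and related binding proteins 7 of 39 were higher (17.9%, against 3.52% of all genes) and 0 lower. They included Kitl, the ligand of the KIT receptor (at least 4.02-fold), Angpt2 (3.18-fold), the neurotrophin gene Bdnf (3.12-fold) and the receptor gene Tyro3 (2.59-fold). Igfbp5 (3.45-fold, 4293 and 15982) and Igfbp3 (3.65-fold) are also counted, though they encode binding proteins of growth factors and neither receptors nor ligands.

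The Wnt genes that were at least 2-fold higher included both activators and antagonists. Wnt4, a secreted ligand, was not detected with the empty virus (138) and had 850 with Foxa2, at least 7.44-fold higher. Wls, the carrier that brings Wnt proteins to the cell surface, was 3.72-fold higher (771 and 3090), and the antagonist genes Dkk3 and Wif1 2.81-fold and at least 2.06-fold. Of 35 measured genes 6 were higher (17.1%, against 3.52% of all genes) and 0 lower, but the median was 0.04. With 1.48% of all genes lower, the count of 0 says little about Wnt genes. Notch genes were split: Neurl1a, a ubiquitin ligase of Notch ligands, was 12.3-fold higher (461 and 5641) and the target gene Hes1 2.83-fold (343 and 982), while Hey2 was at least 2.29-fold lower and Nrarp 2.11-fold lower. Among 24 Notch genes 2 were higher and 2 lower (8.33% each, against 3.52% and 1.48% of all genes). Axon guidance genes other than Slit2 included the ephrin gene Efna5 at 4.10-fold higher (969 and 4253), for which a dimmer probe gave no difference, the receptor genes Nrp1 (3.25-fold, by 2 probes) and Robo1 (2.53-fold), and Epha3 at 2.26-fold lower.

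Pan-neuronal genes were more often above 0 than below, while lists of receptors and channels were not. Of 43 measured pan-neuronal genes 32 lay above 0, 7 were higher and 0 lower, with a median of 0.45. With 1.48% of all genes lower, the count of 0 says little. Tagln3, an actin-binding protein of young neurons, was 2.78-fold higher (2339 and 7135), the axonal motor gene Kif5a 2.66-fold (221 and 551), the synaptic complexin gene Cplx2 2.56-fold (405 and 1089), and Syt4 2.45-fold. Others of that list lay within 2-fold, such as Stmn2 (1.42-fold higher) and Gap43 (1.76-fold higher). Diras2, a small GTPase, had 170 and 1694, 15.2-fold higher, from a Control signal just above the lowest detected one (166). The AMPA receptor subunit gene Gria1 was 6.36-fold higher (214 and 1129), and all 3 of its probes were at least 1.82 on the log2 scale. Among 22 transmitter receptor genes 3 were higher, Gria1 included, and 2 lower, Mc5r and Mc4r, with 11 above and 11 below 0 and a median of 0.02. The T-type calcium channel gene Cacna1h was 3.81-fold higher (1287 and 5237), the single higher gene among 33 ion channel genes (3.03%, against 3.52% of all genes). In that list Kcne1l and Kcnip2 were lower, 15 genes lay above and 18 below 0, and the median was -0.04.

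Of 14 measured genes of GABAergic neurons and interneurons none passed 2-fold, where 5% of all genes did, so that this count says little about them. In that list 9 lay above 0, with a median of 0.09. Of 23 genes of cortical excitatory neurons 1 was higher and 3 lower: the small GTPase gene Rnd2, which guides migrating cortical neurons, was 3.12-fold lower (4764 and 1775), and the proneural genes Neurog2 (2674 and 1530) and Neurod2 were 2.06-fold and 2.13-fold lower. Neurod2 was under 2-fold in 4 of the 9 alternative settings. Both Rnd2 and Neurog2 were well detected on both arrays.

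**Figure D3:**
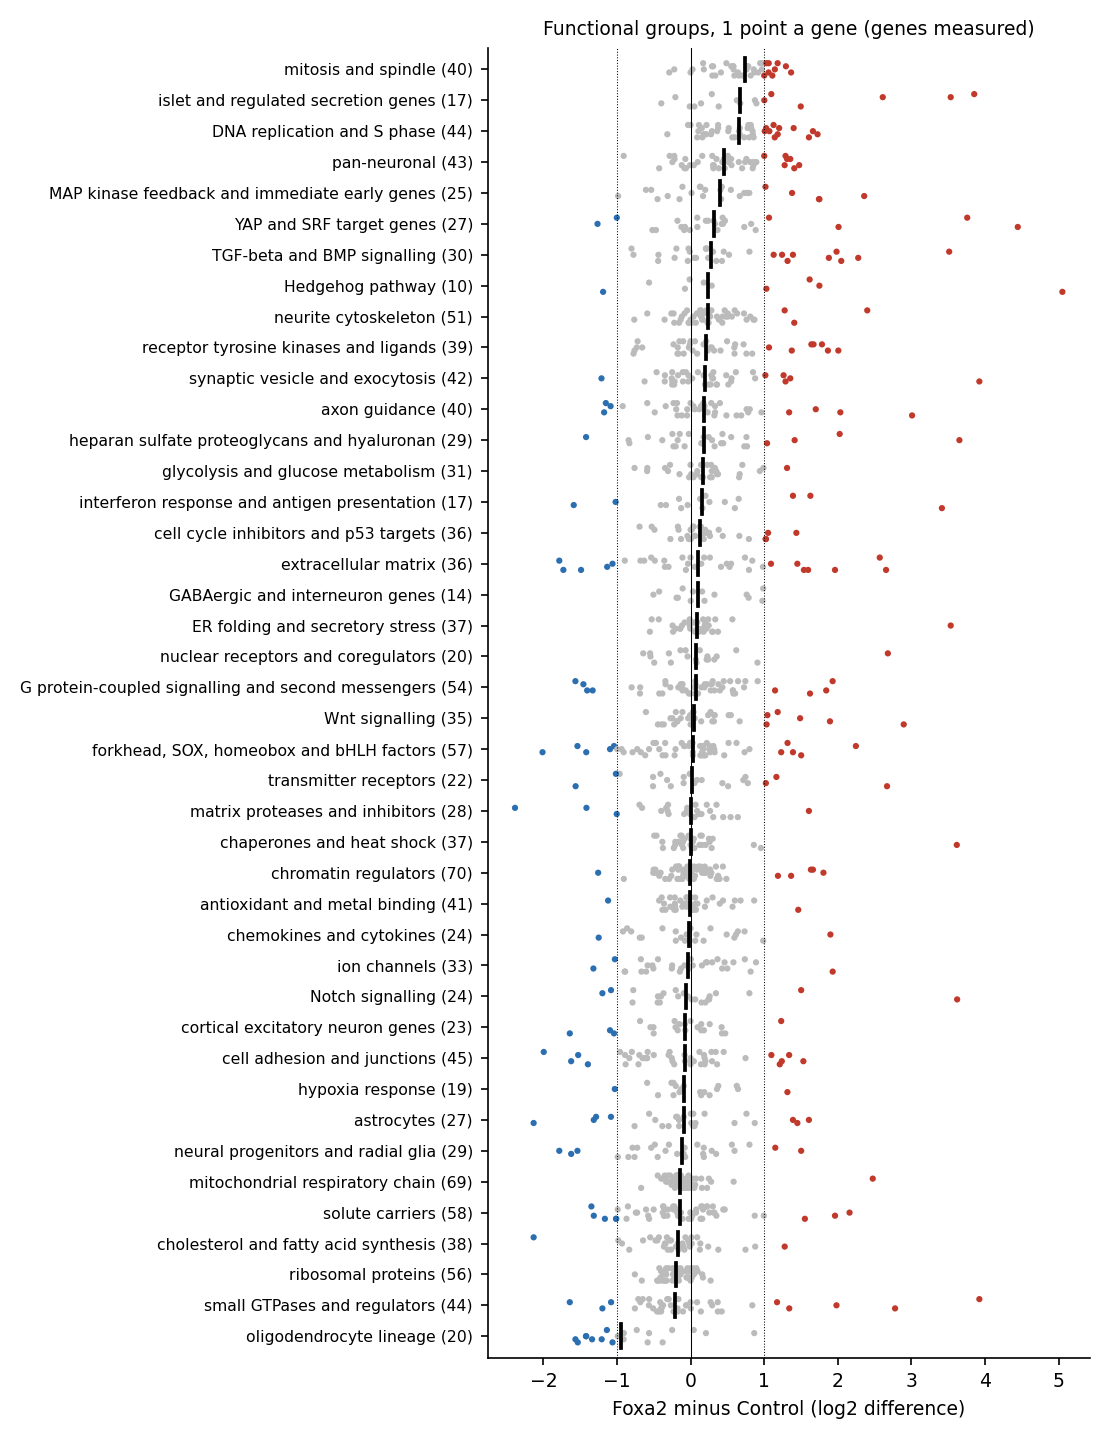
Log2 difference between the Foxa2 and Control arrays for each gene of the functional groups with at least 10 measured genes (number in brackets), 1 point a gene. Black bars are group medians, dotted lines mark 2-fold, and red and blue points are genes at least 2-fold higher or lower. Mitosis and spindle genes (median 0.73) and oligodendrocyte lineage genes (median -0.94) are at the top and bottom of the order.

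The oligodendrocyte lineage had the lowest median of the groups with at least 10 measured genes. Of 20 measured genes 8 were at least 2-fold lower (40%, against 1.48% of all genes) and 0 higher, 17 lay below 0, and the median was -0.94. With 3.52% of all genes higher, the count of 0 higher says little. Gpr17, a receptor of committed oligodendrocyte precursors, had 11307 on the Control array and 4278 on the Foxa2 array, 2.96-fold lower. The sulfatide enzyme gene Gal3st1 was 2.89-fold lower (2317 and 971), the myelin enzyme gene Cnp 2.68-fold (3146 and 1399, both probes lower) and the transcription factor gene Sox8 2.67-fold (2765 and 1235). Fa2h, Lims2, Tmem100 and the NG2 proteoglycan gene Cspg4 were 2.53-fold, 2.31-fold, 2.20-fold and 2.09-fold lower. Cspg4 was under 2-fold in 4 of the 9 alternative settings. The lineage factor genes Olig2 (1.88-fold), Olig1 (1.30-fold) and the receptor gene Pdgfra (1.66-fold) were lower by less, and Bcas1 by 1.99-fold (20383 and 10320). In RNA of a whole culture, fewer cells of a type and less RNA of its genes in each cell cannot be told apart.

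Astrocyte genes were split. Apoe, encoding the lipoprotein that astrocytes secrete, had 13478 and 3416, 4.38-fold lower, the largest lower value among genes detected on both arrays. The glutamate transporter gene Slc1a2 (2.49-fold, both probes), Scrg1 (2.43-fold) and the acyl-CoA synthetase gene Acsbg1 (2.12-fold) were lower, while Id3, Timp4 and the matrix gene Sparcl1 (2.73-fold) were higher. Aqp4, the astrocyte water channel gene, was 1.11-fold lower (1196 and 1245). Of 27 genes 4 were lower and 3 higher, with a median of -0.09, where 1.48% of all genes were lower and 3.52% higher. Among the 29 progenitor and radial glia genes, Tnc, the adhesion molecule gene Vcam1 (3.08-fold, 7730 and 2797) and the SOX factor gene Sox3 (2.90-fold, 445 and 242) were lower, and Hes1 and Rfx4 (2.22-fold) higher, with a median of -0.11. Nes and Sox2 were each 1.13-fold higher. No single direction held across this list.

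Other genes with large lower values had varied roles. Vgll2, a TEAD cofactor, was 4.03-fold lower (607 and 244), Gjd2, the gap junction protein of neurons, 3.98-fold (1916 and 618), and Brinp3 3.92-fold (1011 and 367). Galnt13, which starts mucin-type glycosylation, was 3.43-fold lower (347 and 180), and Rgcc, a cell cycle regulator, 3.22-fold (7909 and 2716). For Vgll2 and Gjd2 both probes were lower.

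Large higher values outside the groups above were also varied. Tmem255a was at least 14.8-fold higher (138, not detected, and 1578) and Aard 9.76-fold (397 and 3735). Ifitm3, an interferon-inducible membrane protein, was 10.7-fold higher (348 and 3470), the related Ifitm2 2.62-fold and the antigen presentation gene H2-T23 3.09-fold, while the interferon response genes Rsad2 (293, and 173, not detected) and Gbp3 (2.03-fold, but under 2-fold in 5 of the 9 alternative settings) were lower. The interferon list of 17 genes therefore held 3 higher and 2 lower, where 3.52% of all genes were higher and 1.48% lower. Rarb, encoding a retinoic acid receptor, was at least 6.41-fold higher (124, not detected, and 747), with both probes in accord. The carbonic anhydrase gene Car14 was 7.45-fold higher (188 and 1057), the ecto-nucleotidase gene Nt5e 7.03-fold (182 and 944), and Klf5 4.74-fold (170 and 599), all from Control signals near the lowest detected one. Among 69 measured respiratory chain genes the cristae protein gene Chchd10 alone passed 2-fold, at 5.56-fold higher (175 and 719), and the list median was -0.14. All 56 ribosomal protein genes lay within 2-fold, with a median of -0.20. Over all genes 5% passed 2-fold.

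Markers of cell types that could contaminate a cortical culture were near background or few. For microglia and macrophages 1 of 3 genes with a named probe was measured, Ctss, with 171 on the Control array and 158, not detected, on the Foxa2 array, and the defining marker Aif1 was detected on neither. For endothelial and mural cells 3 of 4 were measured, with summed signals of 1244 and 1312, and Kdr was not detected. For meningeal fibroblasts 5 of 9 were measured (9515 and 6893, most of it Pdgfra, which oligodendrocyte precursors share), and Col1a1, Dcn, Lum and Foxc1 were detected on neither array. For ependymal and choroid plexus cells 4 of 7 were measured (916 and 1025), and Aqp1, Cldn1 and Tekt1 were not. For neural crest and melanocytes 4 of 6 were measured (56091 and 45105, most of it Ednrb, which glia share), the pigment genes Dct and Pmel were 2.57-fold and at least 2.48-fold lower, and Tyrp1 and Ngfr were not detected. The part of such cells in the differences above was not tested.

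The arrays with Nurr1 virus gave another measurement of adding Foxa2, since the array with both factors against the Nurr1 array shares no array with the comparison above. In that comparison 4.03% of the same 7923 genes were at least 2-fold higher (319 genes) and 1.55% at least 2-fold lower (123). Of the 279 genes higher with Foxa2 alone, 94 were higher there too, which is 33.7% of the first list and 29.5% of the second, and 4 were at least 2-fold lower. Of the 117 lower genes 40 were lower again, 34.2% of the first list and 32.5% of the second, and 2 were higher. The sign was the same for 205 of the higher genes (73.5%) and 94 of the lower genes (80.3%), while 39.5% of all genes lay above 0 and 57.0% below 0 in the second comparison. Over 7127 genes detected on all 4 arrays, Pearson's r between both sets of log2 differences was 0.41 and Spearman's rho 0.31. This correlation is across genes, which share their arrays and are not independent replicates.

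**Figure D4:**
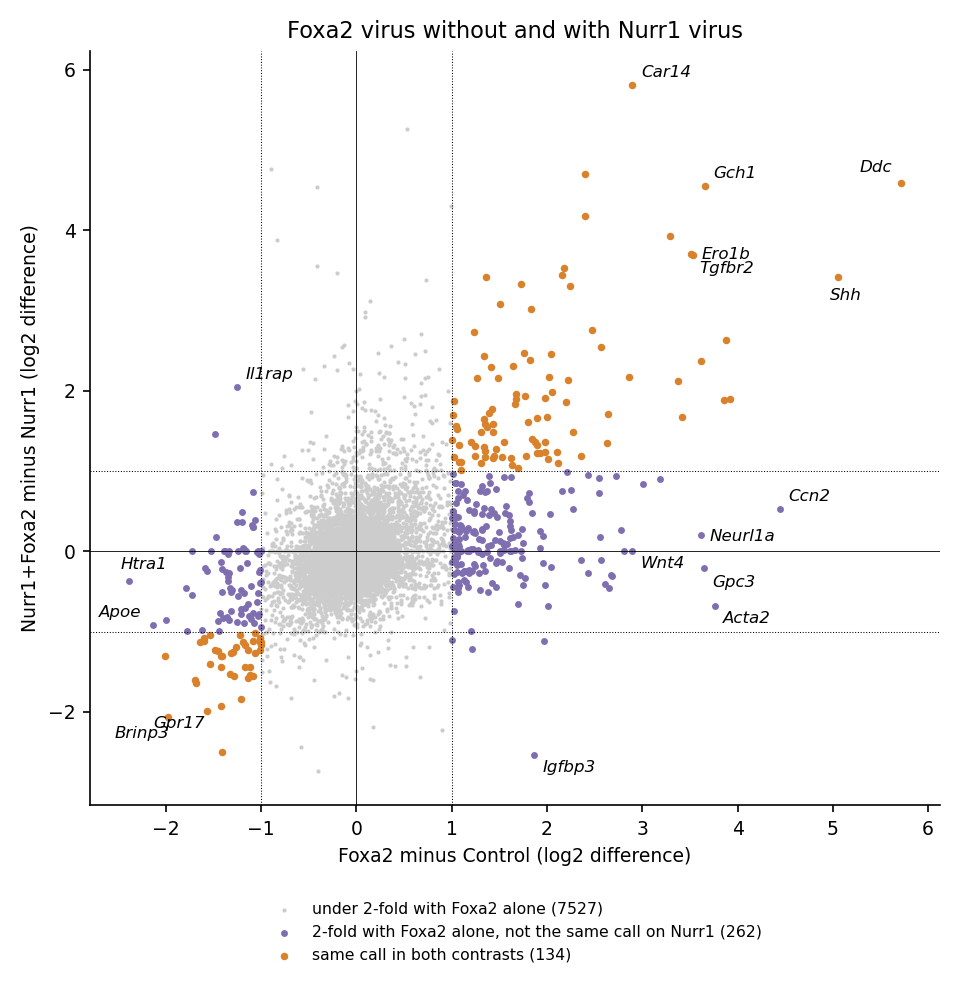
Log2 difference for the Foxa2 virus without Nurr1 virus (x axis, Foxa2 minus Control) and with it (y axis, array with both factors minus Nurr1 array), 1 point for each of 7923 genes. Orange points are the 134 genes past 2-fold in the same direction in both, and purple points the 262 others past 2-fold with Foxa2 alone. Ddc, Shh and Gch1 lie at the upper right, and Ccn2, Acta2 and Neurl1a lie near 0 on the y axis.

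Of the 4 floor plate genes higher with Foxa2 alone, 3 were at least 2-fold higher again on top of Nurr1, as were all 3 monoamine genes. For all 279 higher genes the share was 33.7%. In the Hedgehog list 1 of the 4 higher genes recurred, Shh, and the median there was 0. Ddc had 368 on the Nurr1 array and 7392 with both, 24.2-fold higher. Shh had 101, not detected, and 1040, at least 10.7-fold higher, Corin 94.7, not detected, and 485, at least 4.34-fold, and Gch1 152, not detected, and 2178, at least 23.5-fold. Dnajc12 was 5.18-fold higher, Ero1b 12.9-fold, Sulf1 at least 4.51-fold and Lox at least 5.86-fold. Tgfbr2 had 204 and 1791. For these genes the Nurr1 array was low, as the Control array had been, apart from Ddc. Th had 188 with Nurr1 and 4470 with both, 38.5-fold higher, against at least 1.45-fold with Foxa2 alone. Car14 was at least 56.2-fold higher there (146, not detected, and 5099). That the fold differs between these comparisons was not tested, with 1 array per group.

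Other genes with large values for Foxa2 alone were under 2-fold on top of Nurr1, and for the first 6 given here, picked after their values were seen, the Nurr1 array was above the Control array. Ccn2 had 1717 on the Nurr1 array and 2591 on the array with both, 1.44-fold higher. Gpc3 had 5247 and 4912, Spon2 6115 and 4800, Scg2 2327 and 1891, and Dusp4 1201 and 1192, each lower by at most 1.38-fold. Slit2, with 1371 and 2548, was 1.79-fold higher. Others had lower signals on both Nurr1 arrays than on the Foxa2 array. Wnt4 was not detected on either (129 and 171), nor was Nt5e (126 and 166). Gria1 (395 and 373), Rarb (356 and 337) and Neurl1a (721 and 887) were within 1.24-fold, and Acta2 was 1.60-fold lower (292 and 236). For Gria1, Rarb, Neurl1a and Acta2 too the Nurr1 array was above the Control array. Their Control signals were 214, 124 (not detected), 461 and 141 (not detected).

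The groups are given beside all genes, whose median in the second comparison was -0.07. None of the 11 S phase genes and none of the 9 mitotic genes higher with Foxa2 alone were at least 2-fold higher on top of Nurr1. Of all 279 genes higher with Foxa2 alone, 33.7% were higher again on top of Nurr1. There the S phase median was -0.07, the same as for all genes, and the mitotic median -0.37, with 35 of 40 mitotic genes below 0. Mcm5, for example, had 2246 on the Nurr1 array and 2267 on the array with both, and Top2a 1050 and 1118, all above the Control signals given above. The MAP kinase list had a median of -0.29 and the pan-neuronal list -0.06, the latter close to that of all genes. In the oligodendrocyte list 17 of 20 genes lay below 0, and 7 of its 8 lower genes were lower in both comparisons, among them Gpr17 (3.97-fold on top of Nurr1, 5803 and 1652) and Sox8 (3.82-fold, 1625 and 534). Over all genes 57.0% lay below 0 on top of Nurr1, and 34.2% of the 117 lower genes were lower again. Respiratory chain genes had a median of 0.24 with 58 of 69 above 0, and genes of protein folding in the endoplasmic reticulum 0.38 with 29 of 37 above 0.

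**Figure D5:**
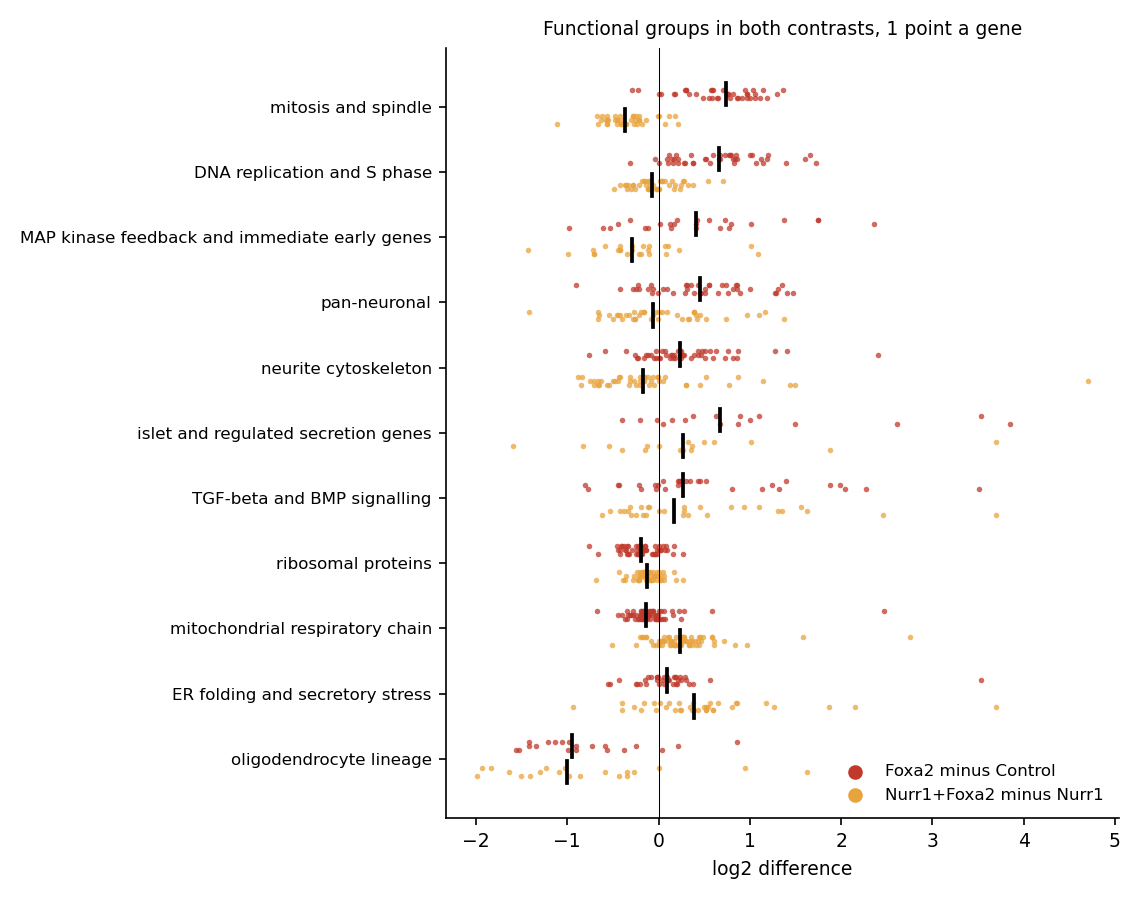
Log2 differences of the genes in 11 functional groups, chosen after their values were seen, for Foxa2 minus Control (red) and for the array with both factors minus the Nurr1 array (orange), 1 point a gene, with medians as black bars. Oligodendrocyte lineage genes lie mostly below 0 in both, while mitosis and spindle genes have 0.73 and -0.37.

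Probes of 1 gene mostly pointed the same way. Of the 396 genes past 2-fold, 86 had at least 2 measured probes, all probes had the same sign in 81 of these, and all passed 2-fold in 42. A probe detected on 1 array only could not be lower on that array, because such a bound was set to 0. Sign agreement of those probes was thus partly fixed in advance. A probe without a difference was found for Efna5, Rgs3 and Synm. A probe of the opposite sign was found for Ap2b1 (-0.04) and Clspn (-0.36). No gene had probes at least 2-fold apart in opposite directions.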

How the data were processed

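The members and the gene lists were chosen with earlier results of these data known, and lists are described by counts and medians only. Per the file headers, the scanner table holds for 25697 probes a mean bead intensity, linear and without normalization, next to the detection p-value of each array. For 13246 probes the authors also deposited log2 values, quantile-normalized as judged from the values; the software behind it is not given in the sources used here. Symbols came from the platform annotation: 12484 probes had 1 symbol, 762 had none, and 12451 lie outside the value table and are unnamed here. Names were checked against RefSeq (GRCm38.p6), where Entrez identifiers of 12480 probes were found.

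Intensities were background-corrected and quantile-normalized over the 4 arrays with limma 3.58.1 (neqc, offset 16) in R 4.3.3. Counts and medians were computed in Python 3.11.15 (pandas 2.3.3, numpy 2.4.6), figures drawn with matplotlib 3.10.9, and the counting of calls tested on simulated data. The probe with the highest mean over the 4 arrays stood for a gene. For an undetected value the lowest normalized level of any detected probe on that array was used, and a bound under 1-fold was set to 0. Higher or lower means a log2 difference of at least 1 with the brighter array detected. With 1 array per group no test was made, and the number of arrays limits the precision. Groups follow the sample labels.

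Genes were named by rank (the 20 largest measured differences and 12 largest bounds each way), as list members past 2-fold (at most 8 each way), as the 3 brightest members of lists with fewer than 2 such genes, as members of the monoamine, floor plate and Hedgehog lists, and as the 5 nearest the threshold on each side. Anxa2, Ifitm2, Stmn2, Gap43, Aqp4, Hnf4a, Olig1, Olig2, Nes, Sox2 and Vim and a few further genes within lists were added after their values were seen. Alternatives covered background correction, offset, scaling, normalizing the pair alone, the authors' values, the detection limit and the averaging of probes.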

Additional observations from a re-analysis of the deposited data

Results flagged for a closer look

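For 6 genes the Foxa2 virus gave differences of at least 2-fold in opposite directions without and with Nurr1 virus, with 1 array per group and no test of the difference. C1ql1 had a log2 difference of -1.48 with Foxa2 alone and 1.46 on top of Nurr1, and Il1rap, a subunit of the interleukin-1 receptor, had -1.25 and 2.04. The other 4 were higher with Foxa2 alone. The cadherin gene Cdh13 had 1.21 and -1.22, Ecrg4 1.97 and -1.12, and the mitotic kinase gene Melk 1.00 and -1.11. For Melk the value with Foxa2 alone is a bound, at least 2.00-fold (146, not detected, and 293). That value was under 2-fold in 4 of the 9 alternative settings, and other probes of Melk were detected on neither array. Igfbp3, which binds insulin-like growth factors, had 1.87 and -2.54, with signals of 659 (Control), 2553 (Foxa2), 19278 (Nurr1) and 3678 (both).

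Probes without a gene symbol also held differences: of 782 detected on the Foxa2 or Control array, 40 were at least 2-fold higher and 16 lower. The largest higher values were those of ILMN_2674351 (271 and 4142, 17.5-fold) and, as a bound, ILMN_2744927 (119, not detected, and 1108). The largest lower value was at least 4.89-fold for ILMN_1256970 (431, and 140, not detected).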

How the results depend on the processing

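Under 9 alternative settings, of which scaling to equal medians of detected probes was chosen after seeing the data, the genes higher with Foxa2 numbered 199 to 359 and the lower ones 55 to 141. The lower count of 117 became 55 without background correction and 57 in the authors' values. The share of higher genes among those past 2-fold (70.5%) became 78.3% without background correction, 76.3% with scaling to equal medians and 77.8% in the authors' values. The floor plate median (1.35) became 1.00 without background correction, 0.99 in the authors' values and 0.75 both at a detection p-value under 0.05 and with no filter. The neural crest median (-1.21) became -0.85 in each of the first 2 of these settings and -0.61 with no filter. Scaling to medians of detected probes put the ribosomal median (-0.20) at -0.42. At a detection p-value under 0.05 the monoamine median (0.42) turned to -0.18, the MAP kinase median (0.41) was 0.15 and the ependymal median (-0.14) 0.13. With no filter the monoamine median turned to -0.21, the Hedgehog median (0.23) to -0.044 and the meningeal median (0.33) to -0.00134, and the MAP kinase and ependymal medians were 0.13 each. The filter settings bring in dim genes; the cause of the other shifts was not tested. The remaining list medians moved by less than the spread between probes. Of 217 named genes past 2-fold, 73 fell under 2-fold without background correction, 71 in the authors' values, 41 with an offset of 50 and at most 17 elsewhere, and 0 turned direction. The share of higher genes that recurred on top of Nurr1 stayed between 30.5% and 36.2%, and that of lower genes between 32.8% and 38.2%. No replicate could be left out with 1 array per group. No paired analysis was possible because each group has a single array.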
